A study of Mus musculus with 5 samples.

Results

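Transforming growth factor beta (TGF-beta) is a family of secreted ligands that control matrix production, and the data described here are the transcript levels of 10 genes of this system in mouse hearts. They are the ligands Tgfb1, Tgfb2 and Tgfb3, the receptors Tgfbr1 and Tgfbr2, and the matrix and matricellular genes Postn, Thbs1, Thbs4, Fn1 and Tnc. They were chosen by name, as every probe set annotated to exactly 1 of these symbols, which gave 21 probe sets for 10 of the 18193 genes named on the array. A further probe set, annotated to Thbs1 together with another gene, was left out by that rule. The genes themselves were chosen with earlier results of these data known.

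The tested hearts came from 3 untreated female NZB_W mice with lupus nephritis and moderate kidney injury by Austin scoring, aged 12 to 15 weeks, and the controls were 2 untreated, healthy, age-matched female NZW mice with no kidney injury. NZB_W mice descend from an NZB and an NZW parent and develop lupus-like disease spontaneously. NZW is one of the parent strains, so effects of strain and of disease cannot be told apart here. All hearts were bled and perfused with saline, and whole-heart RNA was hybridized to Affymetrix whole-genome mouse arrays, 1 array per heart. The titles call the arrays biological replicates. Such an array reads each transcript with 1 or more probe sets, and the deposited level of a probe set is on a log2 scale, where a difference of 1 is a doubling.

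TGF-beta ligands are secreted in a latent complex with latency-associated peptide and latent TGF-beta binding proteins, and are set free by integrins, proteases or thrombospondin. Free ligand binds the type II receptor, which recruits and phosphorylates the type I receptor, and the type I receptor phosphorylates the transcription factors Smad2 and Smad3. In the injured heart this pathway is best known for turning resident fibroblasts into matrix-producing cells, and periostin, fibronectin and tenascin C are matrix proteins whose genes respond to it.

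The brightness of a probe set decided whether it was tested. Testing required a level over the array's own median in 2 or more of the 5 hearts, which kept 22804 of the 45037 probe sets other than Affymetrix controls. Of the 21 probe sets of the 10 genes, 13 passed, covering 9 genes, and 8 did not. Tnc had no tested probe set. Markers of the labelled tissue were present: all 8 listed cardiomyocyte genes passed, with Myh6, the main cardiac myosin heavy chain of the adult mouse, between 14.09 and 14.25 on the 5 arrays, while 6 of 7 skeletal muscle genes lay below the filter.

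The arrays were not equally alike. NZB_W array 3 correlated with the other arrays at 0.973 to 0.981 over the tested probe sets, and the remaining pairs at 0.983 to 0.993. The actin controls, whose 5′ signal less 3′ signal reports on RNA integrity, differed by -1.31 for NZB_W array 3, by -0.88 and -0.89 for the other NZB_W arrays, and by -0.89 and -1.19 for NZW arrays 1 and 2. The same difference for the GAPDH controls was -0.16 for NZB_W array 3 and 0.17 and 0.11 for NZB_W arrays 1 and 2. It was 0.15 and 0.048 for NZW arrays 1 and 2. NZW array 2 stood apart on an 18S ribosomal control, with 12.7, the other 4 lying between 9.97 and 10.5. Results below are therefore given with and without NZB_W array 3.

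Between the groups, none of the 13 tested probe sets passed the test. The smallest adjusted p was 0.892 and the smallest unadjusted p 0.380 (limma, Benjamini-Hochberg over all 22804 probe sets). Over all probe sets 5 passed at an adjusted p of 0.05, all higher in NZB_W, or 0.0219%, and 5.25% had an unadjusted p under 0.05, against 0 of the 13. In none of the 13 did the NZB_W levels lie wholly above or below the NZW levels, while the groups did not overlap for 16.6% of all probe sets (6.96% higher and 9.66% lower in NZB_W). The median log2 difference of the 13, NZB_W minus NZW, was 0.16, with 12 higher and 1 lower, against a median of -0.013 over all tested probe sets, of which 45.6% were higher. The 13 varied more among NZB_W hearts than most probe sets did: their median SD over the 3 NZB_W arrays was 0.488, against 0.132 over all tested probe sets. Several probe sets share a gene, so these counts are not counts of independent measurements.

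What most of the 13 probe sets shared was a high level in 1 heart. Thbs4 and the dimmer tested probe set of Tgfbr2 did not share it. NZB_W array 3 stood above all 4 other arrays for 11 of the 13 probe sets, against 27.6% of all tested probe sets, and at least 1 log2 unit above them for 3 (Postn, Fn1 and 1 Thbs1 probe set), against 0.68% of all. It exceeded the mean of NZB_W arrays 1 and 2 by at least 1 log2 unit for 6 of the 13, against 1.52% of all. This pattern was noticed in the data and is given as a description of 1 array with no test. The genes were also chosen with earlier results of these data known, so the shares describe and do not test. In whole-heart RNA, more cells of a type and more RNA per cell cannot be told apart.

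**Figure D1:**
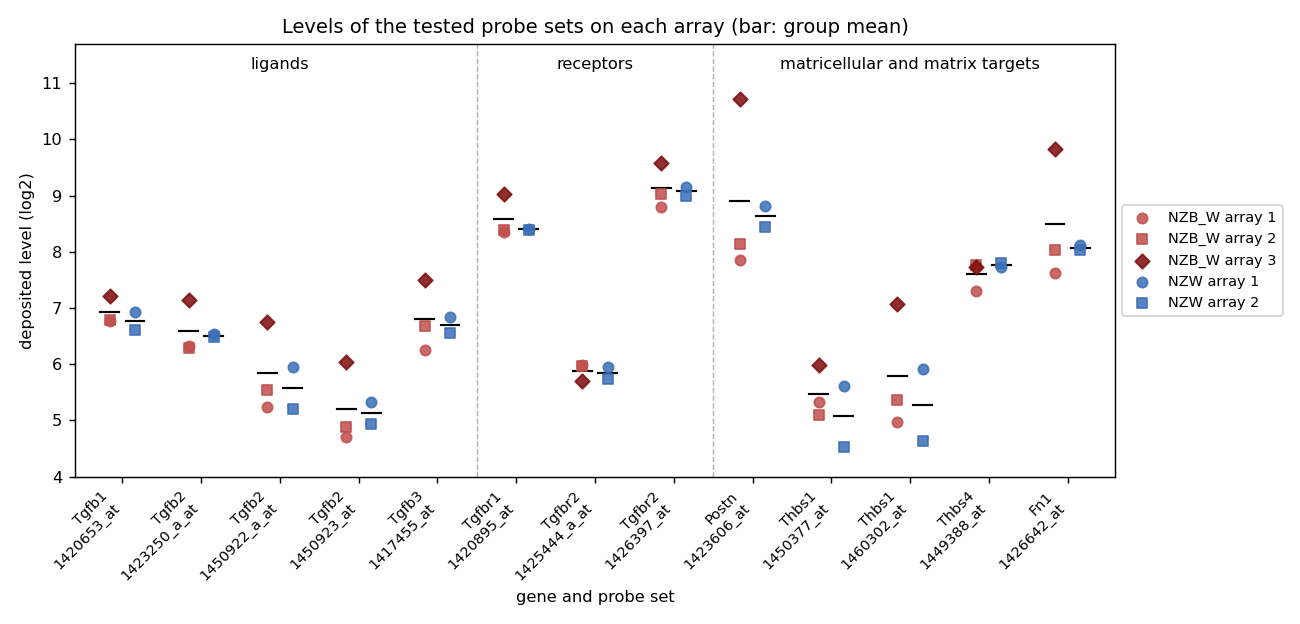
Deposited log2 level (vertical axis) of each of the 13 tested probe sets (horizontal axis), with the 3 NZB_W arrays left and the 2 NZW arrays right of each tick; short bars are group means. The dark diamonds of NZB_W array 3 stand highest for 11 of the 13 probe sets, most of all for Postn at 10.7.

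The ligand genes come first in the pathway, and none of their tested probe sets passed the test. Tgfb1, the ligand best known from platelets, immune cells and fibroblasts, read 6.76, 6.79 and 7.21 in NZB_W hearts, always given in the order 1, 2, 3, and 6.92 and 6.61 in NZW hearts (probe set 1420653_at). The groups overlapped, with array 3 highest and NZW array 2 lowest. The log2 difference was 0.16 (SE 0.19, 95% interval -0.33 to 0.65, limma adjusted p = 0.901). A dim Tgfb1 probe set, 1445360_at, lay between 3.81 and 4.10 on all arrays, levels too dim to rank, and was not tested.

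Tgfb2, a ligand with a known part in heart valve and septum development, had 3 tested probe sets. On the brightest, 1423250_a_at, it read 6.32, 6.29 and 7.15 in NZB_W hearts and 6.54 and 6.48 in NZW hearts. NZB_W arrays 1 and 2 therefore lay below both NZW arrays and array 3 above them. Probe set 1450922_a_at read 5.24, 5.53 and 6.74 in NZB_W hearts and 5.95 and 5.20 in NZW hearts. Probe set 1450923_at read 4.70, 4.88 and 6.04 in NZB_W hearts and 5.32 and 4.94 in NZW hearts. All 3 agreed that array 3 was highest, by 0.62 to 0.80 over the next array. Their log2 differences of 0.081, 0.27 and 0.075 had standard errors of 0.30, 0.53 and 0.45, and adjusted p from 0.938 to 0.986 (limma). The fourth, 1438303_at, exceeded its array's median on array 3 alone and was not tested. It read 4.49, 4.43 and 5.05 in NZB_W hearts and 4.41 and 4.17 in NZW hearts. Its levels outside array 3 are too dim to rank.

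Tgfb3, the third ligand, read 6.25, 6.68 and 7.49 in NZB_W hearts and 6.84 and 6.56 in NZW hearts. NZB_W hearts thus held both the lowest and the highest level. The log2 difference was 0.11 (SE 0.39, limma adjusted p = 0.970), with a 95% interval from -0.93 to 1.15.

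Tgfbr1, the type I receptor kinase, read 8.36, 8.39 and 9.03 in NZB_W hearts and 8.42 and 8.39 in NZW hearts on its bright probe set 1420895_at. The other 4 arrays lay within 0.059 of each other, and array 3 stood 0.62 above the highest of them. The log2 difference was 0.19 (SE 0.24, adjusted p = 0.902, limma). Its other probe sets, 1420893_a_at and 1420894_at, lay between 3.25 and 3.80 on all arrays and were not tested. Array 3 read 3.34 and 3.39 on them, and these levels are too dim to rank.

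Tgfbr2, the ligand-binding type II receptor, gave 2 tested probe sets that disagreed about array 3. The bright one, 1426397_at, read 8.80, 9.03 and 9.58 in NZB_W hearts and 9.15 and 9.00 in NZW hearts, with array 3 highest. The dimmer one, 1425444_a_at, read 5.99, 5.96 and 5.70 in NZB_W hearts and 5.96 and 5.74 in NZW hearts, with array 3 lowest. Their log2 differences were 0.063 (SE 0.25) and 0.033 (SE 0.13), with adjusted p of 0.974 and 0.972 (limma). The third, 1422019_at, lay at 2.22 to 2.30 on all arrays, at the dim end of the scale and too dim to rank.

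Postn carried the largest contrast between NZB_W hearts. It encodes periostin, a matricellular protein made by activated cardiac fibroblasts and in valves that helps collagen fibrils to mature. Its single probe set read 7.86, 8.14 and 10.72 in NZB_W hearts and 8.83 and 8.44 in NZW hearts. Array 3 was 4.24-fold above the NZW mean, while NZB_W arrays 1 and 2 were the lowest of the 5. NZB_W hearts averaged 8.91 ± 1.57 (SD, n = 3), against 8.63 ± 0.275 (SD, n = 2) for NZW hearts. The log2 difference was 0.27 (SE 0.96, 95% interval -2.25 to 2.80, limma adjusted p = 0.969), and the groups overlapped. Of all 22804 tested probe sets, 16 including Postn had array 3 at least as far above the next array.

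Fn1 encodes fibronectin, the adhesive glycoprotein of provisional matrix that binds integrins and on which collagen is deposited. On probe set 1426642_at it read 7.63, 8.03 and 9.83 in NZB_W hearts and 8.13 and 8.03 in NZW hearts. Array 3 stood alone, 3.38-fold above the NZW mean, and the other 4 arrays lay within 0.50 of each other. The log2 difference was 0.42 (SE 0.71, adjusted p = 0.926, limma). A probe set at the dim end, 1437218_at, lay under the median of every array and was not tested. On it array 3 read 3.70, against 2.83 to 2.93 elsewhere, levels too dim to rank.

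Tnc encodes tenascin C, a matricellular protein that is scarce in the healthy adult heart and is made at sites of remodelling. Its probe set 1416342_at read 3.34, 3.29 and 4.92 in NZB_W hearts and 3.50 on both arrays of NZW hearts. Array 3 alone exceeded the median of its array, so the probe set was not tested, and the other 4 levels are too dim to rank. Probe set 1456344_at stayed between 2.15 and 2.29.

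The thrombospondins did not move as a family. Thbs1 encodes thrombospondin 1, which can release TGF-beta from its latent complex and is also a platelet granule protein. On 1460302_at it read 4.96, 5.36 and 7.07 in NZB_W hearts and 5.92 and 4.63 in NZW hearts, so that array 3 was highest and the NZW arrays differed from each other by 1.29. On 1450377_at it read 5.32, 5.10 and 5.99 in NZB_W hearts and 5.62 and 4.53 in NZW hearts, in nearly the same order. The log2 differences were 0.52 (SE 0.78) and 0.40 (SE 0.43), with adjusted p of 0.916 and 0.897 (limma). Single arrays decided both: without NZW array 2 they were -0.12 and -0.15, without NZW array 1 they were 1.17 and 0.94, and without NZB_W array 3 they were -0.11 and 0.14.

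Thbs4 encodes thrombospondin 4, found in the heart and in tendon, where it is known from pressure-overloaded mouse hearts. It read 7.31, 7.77 and 7.73 in NZB_W hearts and 7.73 and 7.80 in NZW hearts. It was the 1 member of the matrix group with a tested probe set on which array 3 was not the highest, and 4 of the 5 arrays agreed within 0.065. The log2 difference was -0.16 (SE 0.16, 95% interval -0.60 to 0.28, adjusted p = 0.892, limma).

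The promoters of 3 of these genes and of 1 ligand are shown because the first pair, Postn and Tnc, belonged to the genes highest on array 3, and Thbs4 did not. RefSeq windows of GRCm38.p6 were matched by symbol for 7 of the 10 genes. Each sequence gives the 150 bases before an annotated start, 5′ to 3′ on the gene's strand. Capitals mark matches, on either strand, of 4 motifs searched in the 250 bases before the start. These were the core promoter element TATAAA, the Smad-binding element written here as CAGACA, the site of the AP-1 transcription factors written as TGANTCA, and the GC box of Sp1 factors written as GGGCGG.
Postn, second annotated start, chr3:54360957-54361106, plus strand: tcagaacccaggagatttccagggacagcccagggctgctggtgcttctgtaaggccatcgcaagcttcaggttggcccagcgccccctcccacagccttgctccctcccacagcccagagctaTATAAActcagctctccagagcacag
Tnc, second annotated start, chr4:64046937-64047086, minus strand: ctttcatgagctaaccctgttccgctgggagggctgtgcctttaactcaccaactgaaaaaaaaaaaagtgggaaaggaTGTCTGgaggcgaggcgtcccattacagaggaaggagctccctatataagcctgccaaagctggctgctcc
Thbs4, chr13:92794819-92794968, minus strand: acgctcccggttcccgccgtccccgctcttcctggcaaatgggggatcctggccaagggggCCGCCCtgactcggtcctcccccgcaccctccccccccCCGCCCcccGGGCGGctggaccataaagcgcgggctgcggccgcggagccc
Tgfb2, chr1:186705990-186706139, minus strand: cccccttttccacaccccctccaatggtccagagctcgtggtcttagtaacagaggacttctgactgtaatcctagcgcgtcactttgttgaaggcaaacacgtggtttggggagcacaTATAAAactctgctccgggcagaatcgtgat

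Postn held TATAAA from base -26 to -21 before this start and Tgfb2 from -31 to -26, a motif found in 12.4% of 32851 promoter windows of the same length. Tnc held CAGACA on the opposite strand from -71 to -66, and 17.1% of windows hold that motif. Before the stretch printed, this Tnc window also held TATAAA from -205 to -200 and GGGCGG from -246 to -241, and the Tgfb2 window CAGACA from -204 to -199. The window of the first Postn start held none of the 4 motifs. That of the first Tnc start held TATAAA from -126 to -121 and GGGCGG from -167 to -162. The Tnc windows overlap, and these are the same bases as the TATAAA and GGGCGG given for the second Tnc start. Thbs4 had no TATAAA and 3 GC boxes, a motif in 32.7% of windows, and CAGACA from -227 to -222, outside the stretch printed. TGANTCA, in 6.75% of windows, was not found in the windows of the members. Only these spellings were searched, so near spellings, such as tatataag late in the printed Tnc stretch, were not marked. These matches describe letters in a window and no binding was measured.

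**Figure D2:**
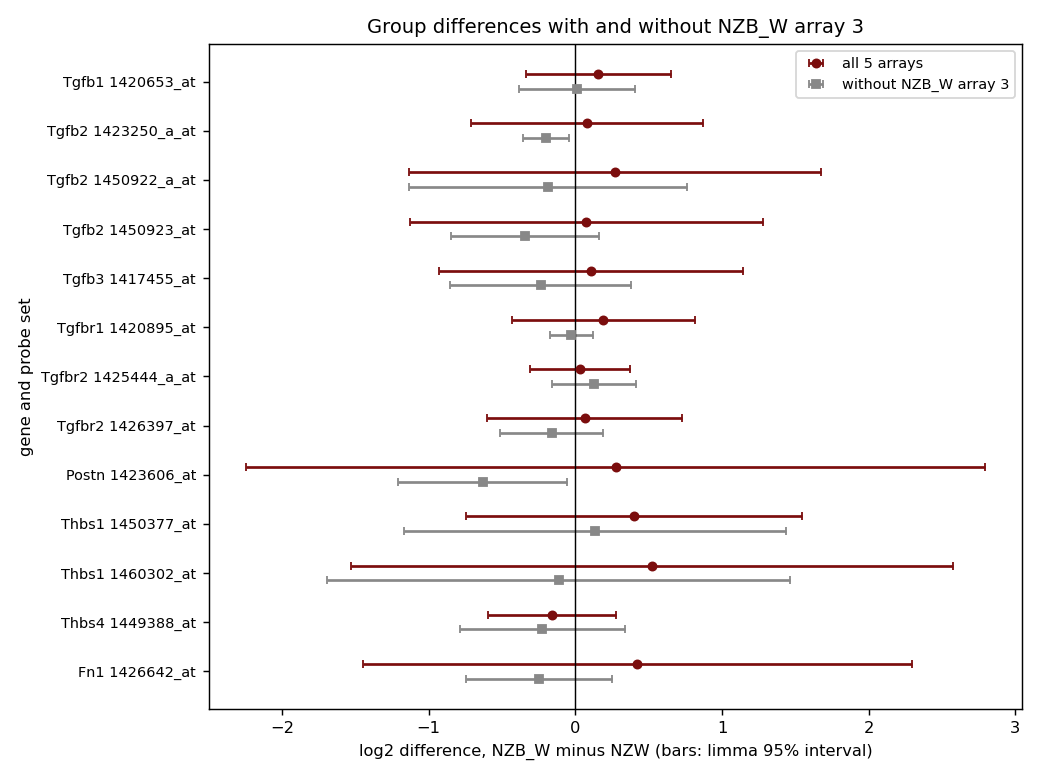
Log2 difference of NZB_W minus NZW (horizontal axis) for the 13 tested probe sets, as points with limma 95% intervals, for all 5 arrays (red circles) and without NZB_W array 3 (grey squares). With all arrays every interval spans 0; without array 3, 10 of the 13 differences lie below 0.

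Leaving out NZB_W array 3 turned most of the differences, and so did leaving out NZW array 2, after which 4 of the 13 were higher and 9 lower (median -0.036). Without NZB_W array 3, 10 of the 13 probe sets were lower and 3 higher than in NZW hearts, with a median log2 difference of -0.18, against -0.014 over all tested probe sets, of which 54.2% were lower. Postn was then at -0.63 (SE 0.19, 95% interval -1.21 to -0.055) and Tgfb2 at -0.20 on 1423250_a_at (SE 0.053, 95% interval -0.36 to -0.042). These were the 2 of 13 with an unadjusted p under 0.05, against 6.28% of all probe sets. Neither passed the adjusted threshold, with p of 0.739 and 0.736 (limma), and 0 of the 13 did, against 0.00877% of all. Fn1 was at -0.25 (SE 0.16) and Tgfb3 at -0.24 (SE 0.21). Postn, Fn1, Tgfb2 and Tgfb3 thus lay higher on 1 NZB_W array and, on average, lower on the other 2 than in NZW hearts.

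**Figure D3:**
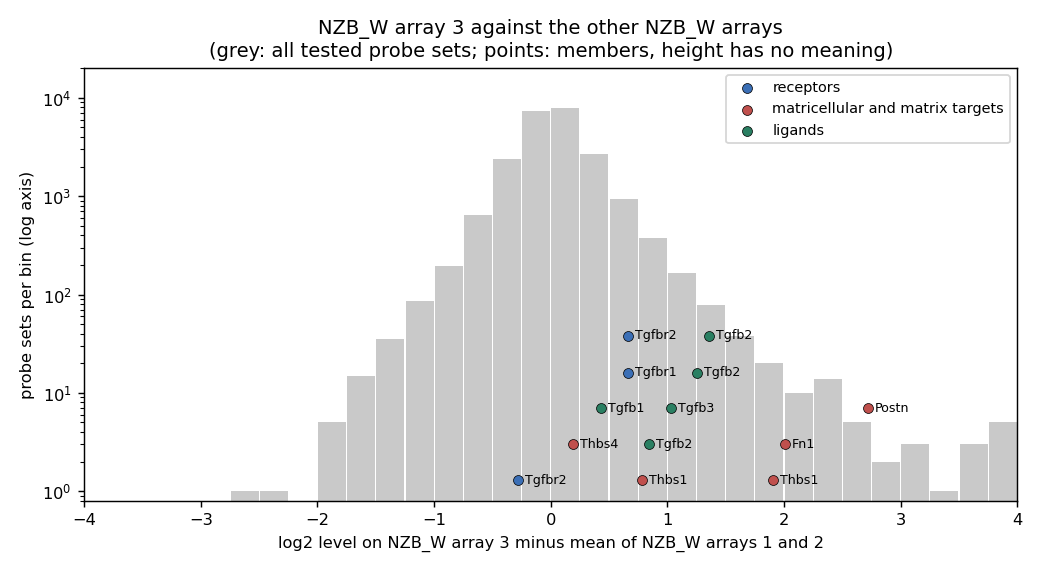
Distribution over all 22804 tested probe sets (grey bars, log axis) of the level on NZB_W array 3 minus the mean of NZB_W arrays 1 and 2 (horizontal axis, log2), with the 13 probe sets as coloured points whose height has no meaning. Postn lies at 2.72, Fn1 at 2.01 and a Thbs1 probe set at 1.91, beyond nearly all probe sets though not beyond all bars, while Thbs4 lies at 0.19.

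The rest of the pathway was read through 7 lists of 88 genes, each gene by its brightest probe set. Of these, 78 genes were tested, 48 were higher and 30 lower in NZB_W, and 0 passed at an adjusted p of 0.05 (limma), while 4 had an unadjusted p under 0.05 (background 5.25%). The median log2 difference was 0.068, against -0.013 over all tested probe sets. The groups did not overlap for 7 of the 78 genes, a smaller share than the 16.6% of all tested probe sets. NZB_W array 3 was highest for 54 of the 78, against 27.6% of all tested probe sets. It exceeded the mean of the other NZB_W arrays by at least 1 log2 unit for 18, against 1.52% of all. The lists were written with earlier results of these data known, so these counts describe and do not test.

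Genes of latency and activation were split. Of 13 tested, 7 were higher and 6 lower (median 0.0097), and none passed. Itgb6, the beta 6 subunit of an integrin that frees TGF-beta at epithelia, had the smallest p of this list: it read 5.22, 5.51 and 4.82 in NZB_W hearts and 5.87 and 5.95 in NZW hearts, without overlap, a difference of -0.72 on the log2 scale (SE 0.22, adjusted p = 0.883, limma). Itgb1 and Itgb5, the beta 1 and beta 5 integrin subunits, differed by 0.18 (SE 0.12) and 0.17 (SE 0.11). Ltbp2, a relative of the latent TGF-beta binding proteins, was below the brightness filter because it was bright on array 3 alone, at 6.94 against 3.32 to 3.72 elsewhere; it was named after its values were seen.

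Receptors and Smads had small median differences between the groups. Of 9 other receptors and co-receptors 6 were higher and 3 lower (median 0.036), and of 5 Smad transducers 1 was higher and 4 lower (median -0.058), with 0 called in both lists. Smad2, named after its values were seen, lay between 6.59 and 6.63 on all arrays, with an identical 6.60 on the 3 NZB_W arrays. Smad3 read 7.16, 7.37 and 7.41 in NZB_W hearts and 7.60 and 7.41 in NZW hearts, a log2 difference of -0.19 (SE 0.11). Smad1, which serves bone morphogenetic proteins, differed by 0.28 (SE 0.19) and Smad4, the shared partner of receptor-activated Smads, by -0.078 (SE 0.090). Among receptors the smallest p belonged to Acvr2b and Bmpr2, type II receptors for activins and bone morphogenetic proteins, at 0.14 (SE 0.12) and 0.11 (SE 0.12), and to Acvr1, a type I receptor, at -0.15 (SE 0.18). The median excess of array 3 over the other NZB_W arrays was 0.087 for the receptors and 0.14 for the Smads.

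Of 11 inhibitors and feedback genes, 6 were lower and 5 higher (median -0.097), and none passed. Bambi, a decoy receptor that blocks TGF-beta signalling, read 6.90, 7.48 and 7.85 in NZB_W hearts and 7.91 and 7.95 in NZW hearts, without overlap, a difference of -0.52 on the log2 scale (SE 0.29, adjusted p = 0.883, limma). The inhibitory Smads differed by -0.24 (SE 0.14) for Smad6 and -0.22 (SE 0.14) for Smad7, both with overlap. Smad7, which TGF-beta itself induces in many cells, was not highest on array 3: it read 7.99, 8.06 and 8.12 in NZB_W hearts and 8.49 and 8.07 in NZW hearts.

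Transcriptional targets of TGF-beta showed the array 3 pattern most clearly. Of 15 tested, 14 were higher and 1 lower (median 0.24), 0 passed, and without array 3 the median was -0.082 with 11 lower. Array 3 was highest for 13 of the 15 and at least 1 log2 unit above the mean of the other NZB_W arrays for 9. Over all tested probe sets these shares were 27.6% and 1.52%. Lox, the enzyme that crosslinks collagen and elastin, read 5.42, 5.32 and 8.49 in NZB_W hearts and 5.42 and 5.33 in NZW hearts. Col1a1, a chain of type I collagen, read 6.79, 7.48 and 9.69 in NZB_W hearts and 7.67 and 7.50 in NZW hearts. Timp1, an inhibitor of matrix metalloproteinases, read 4.95, 5.35 and 7.64 in NZB_W hearts and 5.76 and 5.32 in NZW hearts. Lox, Col1a1, Timp1 and Ccn2 were named after their values were seen. Ccn2, the connective tissue growth factor, read 10.80, 10.87 and 11.52 in NZB_W hearts and 11.20 and 10.64 in NZW hearts, a smaller excess on array 3. By the smallest p, the list was led by Cdkn1a, the cell cycle inhibitor p21, at 0.95 on the log2 scale (SE 0.16, limma adjusted p = 0.526), by Inhba, the activin beta A subunit, at 0.24 (SE 0.17), and by Acta2, smooth muscle actin, at 0.34 (SE 0.30). Cdkn1a did not follow array 3: it read 9.07, 8.91 and 8.71 in NZB_W hearts and 7.77 and 8.12 in NZW hearts.

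Other matricellular genes were mixed, with 9 of 16 higher and 7 lower (median 0.046) and 0 called. Tnxb, tenascin X, read 7.89, 8.19 and 8.26 in NZB_W hearts and 8.44 and 8.54 in NZW hearts, lower without overlap, a difference of -0.38 on the log2 scale (SE 0.13, adjusted p = 0.883, limma). Smoc2, a relative of Sparc, differed by -0.23 (SE 0.13), and Ccn3, of the Ccn2 family, by 0.69 (SE 0.47) with its excess on array 3. The other thrombospondins were Thbs2, Thbs3 and Comp, also known as thrombospondin 5, and they were named after their values were seen. Thbs2 and Thbs3 differed by -0.18 (SE 0.15) and 0.0022 (SE 0.14), and Thbs2 was lowest on array 3. Comp was highest there: it read 5.19, 5.65 and 7.93 in NZB_W hearts and 6.89 and 5.40 in NZW hearts, a difference of 0.11 on the log2 scale (SE 0.99, adjusted p = 0.992, limma). Of 9 integrin, syndecan and scavenger receptors for matricellular proteins, 6 were higher and 3 lower (median 0.070). Sdc4, a syndecan that binds fibronectin together with integrins, differed most, at 1.78 (SE 0.12, adjusted p = 0.0949, limma), which does not pass with all 5 arrays weighted alike (with array weights it was 1.82, adjusted p = 0.0355). It was even over NZB_W hearts, at 8.99, 9.05 and 8.89, against 7.05 and 7.35 in NZW hearts. Itga5, the alpha subunit of the main fibronectin receptor, differed by 0.37 (SE 0.21), and Itga4 by 0.34 (SE 0.21).

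**Figure D4:**
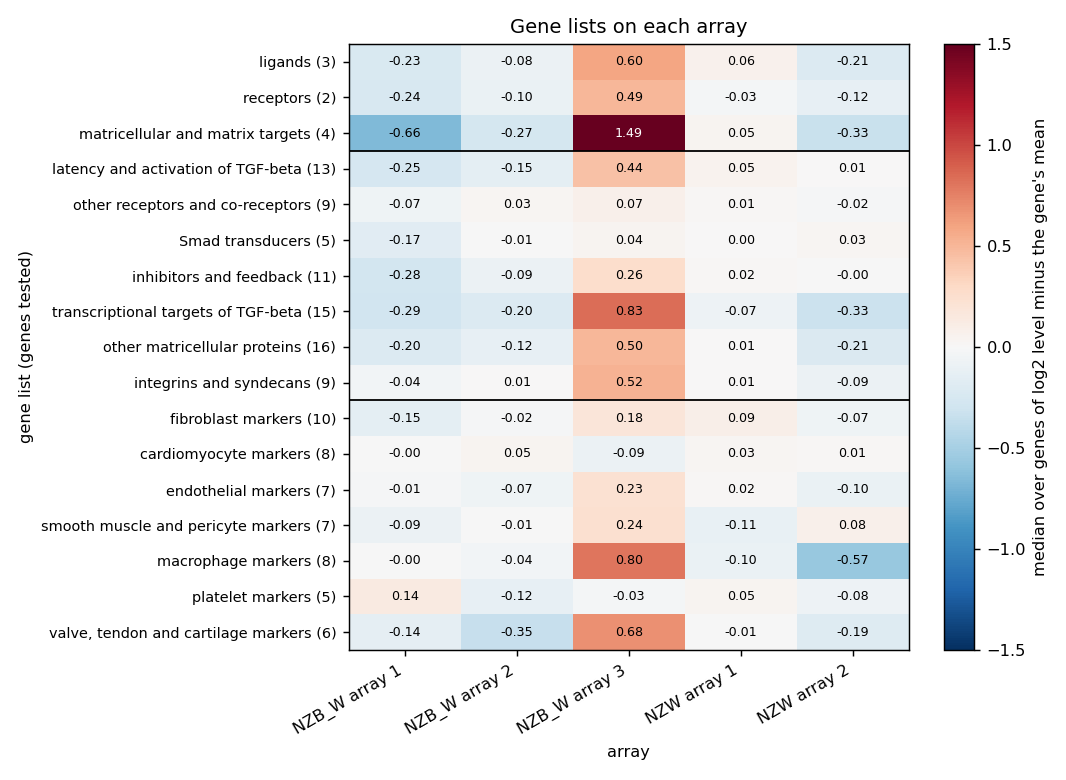
Median over the tested genes of each list (rows, number of genes in parentheses) of the log2 level minus the gene's own mean, on each array (columns), for the 10 genes by role (top), the pathway lists (middle) and cell type markers (bottom; lists with at least 5 tested genes). NZB_W array 3 reaches 1.49 for the matrix genes, 0.83 for TGF-beta targets and 0.80 for macrophage markers, and 0.18 for fibroblast markers.

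Markers of cell types moved with array 3 to different degrees. Over all tested probe sets, array 3 was highest for 27.6%. Macrophage markers were highest on array 3 for 8 of 8 genes. Their summed linear level was 4596, 4412 and 7891 in NZB_W hearts and 4150 and 2945 in NZW hearts. Without array 3 their median log2 difference was 0.30, with 0 of 8 lower in NZB_W, against 54.2% of all tested probe sets. Resident fibroblast markers were highest on array 3 for 7 of 10 genes. Their sum was 17696, 18564 and 20198 in NZB_W hearts and 21004 and 17159 in NZW hearts, with overlap. Most of this sum came from Gsn, gelsolin, and Dcn, decorin, so it says little about the dimmer genes of the list. Gsn read 12.8, 12.9 and 12.8 in NZB_W hearts and 13.0 and 12.6 in NZW hearts. Dcn read 12.5, 12.6 and 12.8 in NZB_W hearts and 12.8 and 12.5 in NZW hearts. The dimmer Col5a1, a fibrillar collagen chain, read 7.53, 7.84 and 9.07 in NZB_W hearts and 8.07 and 8.03 in NZW hearts. Valve, tendon and cartilage markers summed to 233, 234 and 813 in NZB_W hearts and 388 and 257 in NZW hearts. Most of the sum on array 3 came from Cilp, a cartilage and heart matrix protein, at 8.81, and the collagen-binding proteoglycan Fmod, at 7.44, while Sox9, a cartilage transcription factor, read 5.48, 5.32 and 5.62 in NZB_W hearts and 5.57 and 5.62 in NZW hearts. Of the 9 genes, the tendon marker Tnmd, the corneal and tendon proteoglycan Kera and Cilp2 were below the brightness filter. Platelet markers, which bear on Tgfb1 and Thbs1, summed to 509, 502 and 736 in NZB_W hearts and 566 and 467 in NZW hearts. They were highest on array 3 for 1 of 5 tested genes, Pf4. The higher sum on array 3 came mostly from Pf4, at 9.03 there against 8.01 to 8.45 elsewhere.

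The other lists were as follows. Cardiomyocyte markers were highest there for 0 of 8 genes, with a sum of 122289, 125310 and 116067 in NZB_W hearts and 125086 and 124092 in NZW hearts. Endothelial markers were highest there for 4 of 7 genes and smooth muscle and pericyte markers for 5 of 7, with gene-centred medians of 0.233 and 0.245 on that array. Of 6 epicardial and mesothelial genes 5 were below the filter, and their sum was highest on NZW array 1, with 121.7, 121.5 and 133.8 in NZB_W hearts and 213 and 104 in NZW hearts. Of 4 adipocyte genes with a probe set 2 were tested, with a sum of 80.1, 94.8 and 97.7 in NZB_W hearts and 227 and 77.1 in NZW hearts. Skeletal muscle genes summed to 102 to 110 in NZB_W hearts and 114 and 104 in NZW hearts. Red cell transcripts, with 2 tested genes both highest on array 3, summed to 994, 276 and 1437 in NZB_W hearts and 168 and 146 in NZW hearts. The part of these cells, and of the actin and GAPDH controls, in the levels of the 10 genes was not tested.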

How the data were processed

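The deposited log2 values, 1 per probe set and array, were made by the authors with tools that the submitters' processing notes name as RMA, GCRMA and Partek, without roles or versions. Which of RMA and GCRMA applied is unstated; they differ most in dim probe sets. No scanner files were used, so there are no detection calls. Some probe sets hold identical values on several arrays, among them Smad2 and Thbs4. The origin of these repeats is not known, so close agreement between arrays is given only as deposited. Symbols come from the platform annotation; 34741 probe sets matched RefSeq by Entrez identifier, and 0 symbols changed. No genome build is stated for the probes, so only promoter windows carry coordinates. Groups were compared by limma (version 3.58.1, R 4.3.3; linear model on group alone, moderated by eBayes, two-sided), Benjamini-Hochberg adjusted over 22804 probe sets, at a threshold of 0.05. SE is limma's moderated standard error, and the number of arrays limits precision. Summed levels are sums of 2 to the power of the log2 value. A gene with several probe sets was represented in lists by the brightest. The test was checked on simulated data. All 21 probe sets of the members are named, and of each pathway list the 3 genes with the smallest p; others are marked or serve as markers. Members and lists were chosen with earlier results of these data known. Some listed genes, among them Fbn1, Lrrc32, Loxl2, Spp1, Plin1, Cfd, Hbb-b1 and Hbb-bt, were not analysed here. Alternatives covered normalization, brightness filters, probe set choice, variance models, array weights, the replicate number as a block and leaving out arrays. Figures were drawn with matplotlib 3.10.9.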

Additional observations from a re-analysis of the deposited data

How the results depend on the processing

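None of the 13 probe sets, nor of all 21 with no brightness filter, passed under any alternative, and their median log2 difference of 0.16 ran from -0.18 to 0.33 with single arrays left out, the lowest without NZB_W array 3, and was 0.0054 with array weights. The count of all probe sets that passed, 5, was 2 with no filter, 2 with the stricter filter, 1 with 1 probe set per gene, 16 with array weights, 0 with the replicate number as a block, and 0 to 2 with single arrays left out. Of the other pathway genes 1 passed with array weights, Sdc4 (1.82, adjusted p = 0.0355, limma), and 0 otherwise. Nothing in the titles says that the replicate number pairs the mice. Deviations of same-numbered arrays correlated at -0.031 and 0.035. With 2 NZW arrays such deviations mirror each other, so these values cannot decide whether mice were paired. Under the replicate block, where NZB_W array 3 has no partner, the differences equalled those without it and turned to -0.20, -0.18 and -0.34 for Tgfb2 (1423250_a_at, 1450922_a_at, 1450923_at), -0.24 for Tgfb3, -0.028 for Tgfbr1, -0.16 for Tgfbr2 (1426397_at), -0.63 for Postn, -0.11 for Thbs1 (1460302_at) and -0.25 for Fn1. With array weights Tgfb2 (1423250_a_at and 1450923_at) was at -0.14 and -0.19, Tgfb3 at -0.033, Tgfbr2 (1426397_at) at -0.040 and Postn at -0.34. With single arrays left out the range was -0.0003 to 0.32 for Tgfb1, -0.20 to 0.23, -0.18 to 0.64 and -0.34 to 0.33 for the Tgfb2 probe sets in the same order, -0.24 to 0.39 for Tgfb3, -0.028 to 0.31 for Tgfbr1, -0.074 to 0.14 (1425444_a_at) and -0.16 to 0.23 (1426397_at) for Tgfbr2, -0.63 to 0.80 for Postn, -0.15 to 0.94 (1450377_at) and -0.12 to 1.17 (1460302_at) for Thbs1, -0.25 to 0.85 for Fn1 and -0.25 to 0.0098 for Acvr1. Thbs4 stayed below 0, at -0.24 to -0.012. With both NZB_W array 3 and NZW array 2 omitted, an alternative chosen after seeing the data, 0 probe sets passed, the median was -0.30, and differences turned to -0.14 for Tgfb1, -0.23, -0.56 and -0.53 for Tgfb2, -0.38 for Tgfb3, -0.042 for Tgfbr1, -0.23 for Tgfbr2 (1426397_at), -0.83 for Postn, -0.41 and -0.76 for Thbs1, -0.30 for Fn1, -0.057 for Acta2, -0.024 for Ccn3 and -0.0090 for Itga4. Of the 13, 7 were higher and 6 lower with array weights, 4 and 9 without NZW array 2, and 3 and 10 without NZB_W array 3. Where an array was left out the turn follows from its absence; otherwise the cause was not tested.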

Other observations

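Besides Postn and Fn1, 22 tested probe sets stood at least as far above all other arrays on NZB_W array 3 as Fn1 did (24 in all, of which 21 carry 1 symbol). They were named after their values were seen. Among the 22, Lox, the collagen and elastin crosslinking enzyme, gave 2 probe sets, fibrillar and other collagens gave 5 (Col1a1, Col1a2, Col5a2 and Col8a1), and Timp1 and Cilp, a cartilage and heart matrix protein, gave 1 each. The others included the interferon-inducible GTPases Igtp (10.34 on array 3, 7.54 to 8.10 elsewhere) and Irgm2, the heme-degrading enzyme Hmox1, the chemokine Ccl8, the acute phase serpin Serpina3n and the proliferation marker Mki67 (7.27 on array 3, 5.16 to 5.25 elsewhere).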
